A study of Homo sapiens with 12 samples.

Results

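The human mitochondrial genome holds 37 genes, and all 37 were counted in RNA of PANC-1 cells. They were taken as every row placed on chrMT in the authors' count table, 37 of 57773 genes, and comprise 2 rRNA genes, 13 mRNA genes and 22 tRNA genes. All 37 passed the filter on low counts, which 22831 genes passed in all. PANC-1 is an established line from a carcinoma of the human pancreatic duct. The cells had been treated for 24 h in 4 groups of 3 libraries each: DMSO as vehicle, 30 nM chaetocin, 90 nM MLN8237, or both compounds together. The label of the combination gives the second compound as "MLN3237", which was read as MLN8237. Chaetocin is a fungal metabolite that inhibits histone lysine methyltransferases such as SUV39H1, and MLN8237 (alisertib) inhibits the mitotic kinase Aurora A. The labels describe triplicates without saying that they were separate cultures, so the p-values cover the scatter of these triplicates alone, which could be technical.

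Mitochondrial DNA is transcribed from both strands into long precursors that span many genes. The tRNA genes punctuate these precursors, and their excision by dedicated nucleases releases the rRNAs and mRNAs on either side. The mRNAs encode subunits of respiratory complexes I, III, IV and V, whose other subunits come from nuclear genes, and the rRNAs form the core of the mitochondrial ribosome. MT-TF, MT-RNR1, MT-TV and MT-RNR2 lie in that order at the start of the heavy-strand transcript. In the human mitoribosome the tRNA encoded by MT-TV (valine) is also a structural RNA of the large subunit, whose rRNA comes from MT-RNR2, while MT-RNR1 encodes the rRNA of the small subunit.

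The sequences below show the tRNA genes that frame and divide this rRNA unit, with the anticodon in capitals. They come from GENCODE release 29 transcripts (GRCh38), matched by Ensembl gene identifier. All 37 genes have the same chrMT positions in that release as in the authors' table, whose build is hg19 per the submitters' processing notes. MT-TF (phenylalanine, ENSG00000210049) lies at chrMT:577-647, MT-TV (ENSG00000210077) at chrMT:1602-1670 and MT-TL1 (leucine, ENSG00000209082) at chrMT:3230-3304, all on the plus strand. MT-RNR1 (ENSG00000211459, chrMT:648-1601) and MT-RNR2 (ENSG00000210082, chrMT:1671-3229) fill the space between them with no base left over. The start of MT-RNR2, chrMT:1671-1730, is shown because it adjoins MT-TV.
MT-TF: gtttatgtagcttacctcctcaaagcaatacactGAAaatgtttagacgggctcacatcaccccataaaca
MT-TV: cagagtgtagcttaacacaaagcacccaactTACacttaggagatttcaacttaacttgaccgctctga
MT-RNR2, start: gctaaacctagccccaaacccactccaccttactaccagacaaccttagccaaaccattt
MT-TL1: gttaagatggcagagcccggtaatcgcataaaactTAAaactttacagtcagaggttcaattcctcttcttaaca

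Of the 37 genes, 9 share bases with a neighbour, so that a read there could be counted to either gene or to neither. MT-ATP6 and MT-CO3 share a single base, and the pairs of protein genes with a longer common stretch are MT-ATP8 with MT-ATP6 at chrMT:8527-8572 and MT-ND4L with MT-ND4 at chrMT:10760-10766. Each of these longer pairs is carried on a single bicistronic mRNA. The shared bases are shown with the start codon of the second gene in capitals.
MT-ATP8 and MT-ATP6: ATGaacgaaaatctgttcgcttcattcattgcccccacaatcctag
MT-ND4L and MT-ND4: ATGctaa

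The libraries held 49439795 to 63747510 counts each, and counts of single mitochondria-encoded genes ran from 70 (MT-TA) to 434544 (MT-ND4). Levels are given in CPM, the count divided by the library size after TMM scaling. Epithelial markers of the line (KRT7, KRT8, KRT18, KRT19, EPCAM and SOX9) were all detected, and their summed level, here per summed counts without TMM scaling, was 4040 to 4600 CPM in vehicle, 2380 to 2600 with chaetocin, 4340 to 4710 with MLN8237 and 2130 to 2360 in the combination. Of the immune markers PTPRC, CD3E and CD68, PTPRC and CD3E were at 0 in vehicle, so the sum there was CD68 alone. The summed level was 149 to 174 CPM in vehicle, 168 to 231 with chaetocin, 164 to 180 with MLN8237 and 172 to 245 in the combination. The endothelial markers VWF and CDH5 were at 0 in vehicle and summed to at most 4.36 CPM in any library, and acinar and endocrine markers summed to at most 0.279 CPM. One library stood apart in its mitochondrial composition. In MLN8237 replicate 3, 16 of the 37 genes were over 1.5-fold higher and 7 over 1.5-fold lower than the mean of the other MLN8237 libraries. Over all genes tested, 14.8% were over 1.5-fold higher and 14.9% lower in that library.

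Mitochondria-encoded genes took 2.45%, 2.42% and 2.66% of all counts in the vehicle libraries, 2.50%, 2.87% and 3.54% with chaetocin, 2.52%, 2.41% and 1.99% with MLN8237, and 2.83%, 2.86% and 2.87% in the combination. The combination libraries were thus all above the vehicle libraries, while chaetocin and MLN8237 each overlapped vehicle. These shares are of summed counts without TMM scaling, whose factors were 1.037 to 1.096 in the combination and 0.9651 to 0.9728 in vehicle. On the TMM scale the mRNA genes had a median log2 difference of -0.01 in the combination against vehicle. The labels do not say whether poly(A) RNA was selected, a step that would deplete tRNAs and rRNAs to different degrees, so these shares hold for these libraries and not for the cells. The mRNA genes took 79.97% to 85.37% of the counts on chrMT, the rRNA genes 12.34% to 18.04% and the tRNA genes 1.922% to 3.687%.

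Per length, the levels of the mRNA genes in vehicle spanned a narrow band beside those of the tRNA genes. MT-ND4, a membrane subunit of complex I, was highest at 4146 ± 162 CPM per kb (SD, n = 3), followed by its bicistronic partner MT-ND4L at 3914 ± 228 CPM per kb, within the spread. MT-ATP8, a small subunit of ATP synthase, stood next at 2821 ± 115 CPM per kb. MT-ND1 (2236 ± 72.9), MT-CYB (2055 ± 121), MT-CO3 (2042 ± 180) and MT-CO2 (1967 ± 60.7 CPM per kb) followed, and the last 3 of these did not differ beyond their spread. The lowest mRNA gene was MT-ND2 at 887 ± 26.9 CPM per kb, below MT-ND5 at 1038 ± 178, again within the spread. The places of MT-ND2, MT-ATP6 and MT-ATP8 in this order depend on how reads were split with nuclear copies. In vehicle MTND2P28 held 202 counts per 100 of MT-ND2, and MTATP6P1 164 per 100 of MT-ATP6. MTATP8P1, named after its values were seen, held 47.4 per 100 of MT-ATP8, and MTND1P23 31.3 per 100 of MT-ND1. With those counts added, MT-ND2 would not be the lowest mRNA gene per length. MT-RNR2 was at 1766 ± 90.1 CPM per kb and MT-RNR1 at 649 ± 150, below every mRNA gene. MT-TL1 (1689 ± 48.6 CPM per kb), MT-TY (tyrosine, 1581 ± 42.5), MT-TC (cysteine, 1132 ± 49.3) and MT-TE (glutamate, 772 ± 112) were the highest tRNA genes, and MT-TA (alanine) the lowest at 24.98 ± 5.63. Reads over a tRNA gene need not come from the mature tRNA, since unprocessed precursors hold the same bases. The authors' deposited RPKM, scaled to another library total, gave 3928 for MT-ND4 and 1675 for MT-RNR2 in vehicle.

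**Figure D1:**
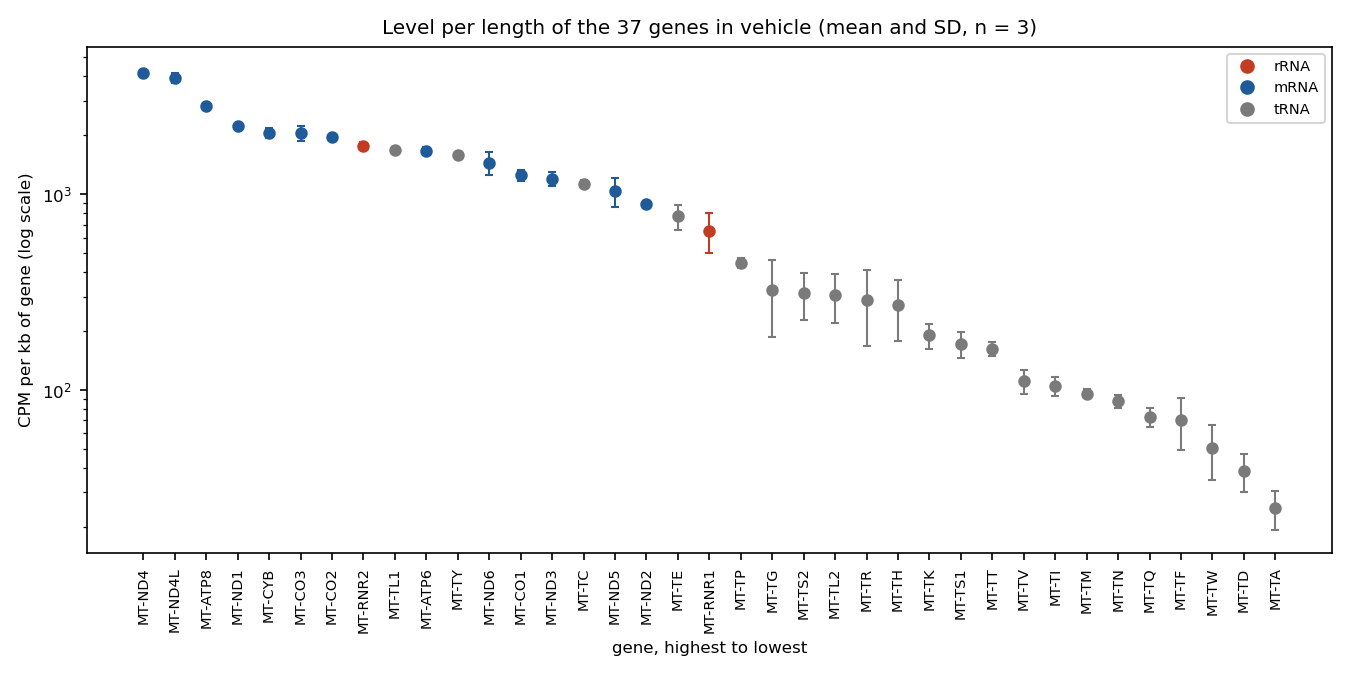
Level per gene length of the 37 genes in the vehicle group, in CPM per kb on a log axis, ordered by level; points are means of 3 libraries and bars are SD. MT-ND4 stands highest at 4146 and MT-TA lowest at 24.98 CPM per kb, with MT-TV (111) and MT-TF (70.5) far below the rRNA genes they adjoin.

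MT-RNR2, the rRNA of the large mitoribosomal subunit, and the valine tRNA gene MT-TV beside it rose with chaetocin and with the combination, and no other mitochondria-encoded gene passed the test in any comparison. Each was tested with edgeR's quasi-likelihood test, fitted over all 22831 genes and 12 libraries and called at a Benjamini-Hochberg adjusted p under 0.05. MT-RNR2 was at 2846, 2824 and 2592 CPM in vehicle, 3375, 3797 and 4187 with chaetocin, 2779, 2724 and 2187 with MLN8237, and 4048, 3556 and 3737 in the combination. All 6 libraries with chaetocin, alone or combined, lay above all 6 without it, and the chaetocin and combination libraries overlapped each other. Against vehicle, the fitted log2 fold change of MT-RNR2 was 0.46 ± 0.12 (SE, adjusted p = 0.0115) with chaetocin and 0.46 ± 0.12 (adjusted p = 0.00723) in the combination, each 1.37-fold to 3 digits. Such a rise is one in the share of a library's counts, which in bulk RNA does not give the RNA per cell.

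MT-TV was at 7.002, 7.08 and 8.94 CPM in vehicle, 10.1, 13.5 and 10.9 with chaetocin, 7.28, 7.75 and 4.39 with MLN8237, and 15.8, 14.7 and 13.1 in the combination. Each library with chaetocin lay above every library without it here as well, and the combination libraries ran from just under the highest chaetocin library upward. The log2 fold change of MT-TV was 0.58 ± 0.19 (adjusted p = 0.0425) with chaetocin against vehicle, or 1.496-fold, and 0.92 ± 0.19 (adjusted p = 0.00231) in the combination, or 1.89-fold. Its level was low, so that it rests on far fewer reads than MT-RNR2, and MT-TV counts amounted to 2.46 to 3.45 per 1000 MT-RNR2 counts in vehicle, 2.60 to 3.56 with chaetocin, 2.01 to 2.84 with MLN8237 and 3.51 to 4.13 in the combination. The combination stood above vehicle and MLN8237 in this ratio, and overlapped chaetocin.

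The remaining genes of the unit missed the threshold. MT-RNR1, the rRNA of the small subunit, was at 557, 517 and 782 CPM in vehicle, 724, 1234 and 857 with chaetocin, 717, 959 and 793 with MLN8237, and 489, 1192 and 678 in the combination. Its spread was wide: replicate 2 was the highest library in each treated group and the lowest in vehicle. The log2 fold change of MT-RNR1 was 0.60 ± 0.29 (adjusted p = 0.148) with chaetocin, 0.41 ± 0.28 (adjusted p = 0.529) with MLN8237 and 0.35 ± 0.28 (adjusted p = 0.370) in the combination. The last of these was -0.08 without combination replicate 2, and the value with chaetocin ran from 0.35 to 0.81 over 18 alternatives, in 1 of which (only the groups compared) it was called. MT-TF, the phenylalanine tRNA gene at the head of the transcript, is named after its values were seen. It was at 4.61, 3.76 and 6.65 CPM in vehicle, 5.82, 8.78 and 6.11 with chaetocin, 5.92, 6.13 and 5.88 with MLN8237, and 6.46, 10.8 and 6.38 in the combination. The treated groups each overlapped vehicle, whose replicate 3 was the highest of its group. Against vehicle, MT-TF had a log2 difference of 0.46 ± 0.24 (adjusted p = 0.196) with chaetocin and 0.65 ± 0.24 (adjusted p = 0.0514) in the combination, where it passed the threshold in 12 of 18 alternative analyses.

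**Figure D2:**
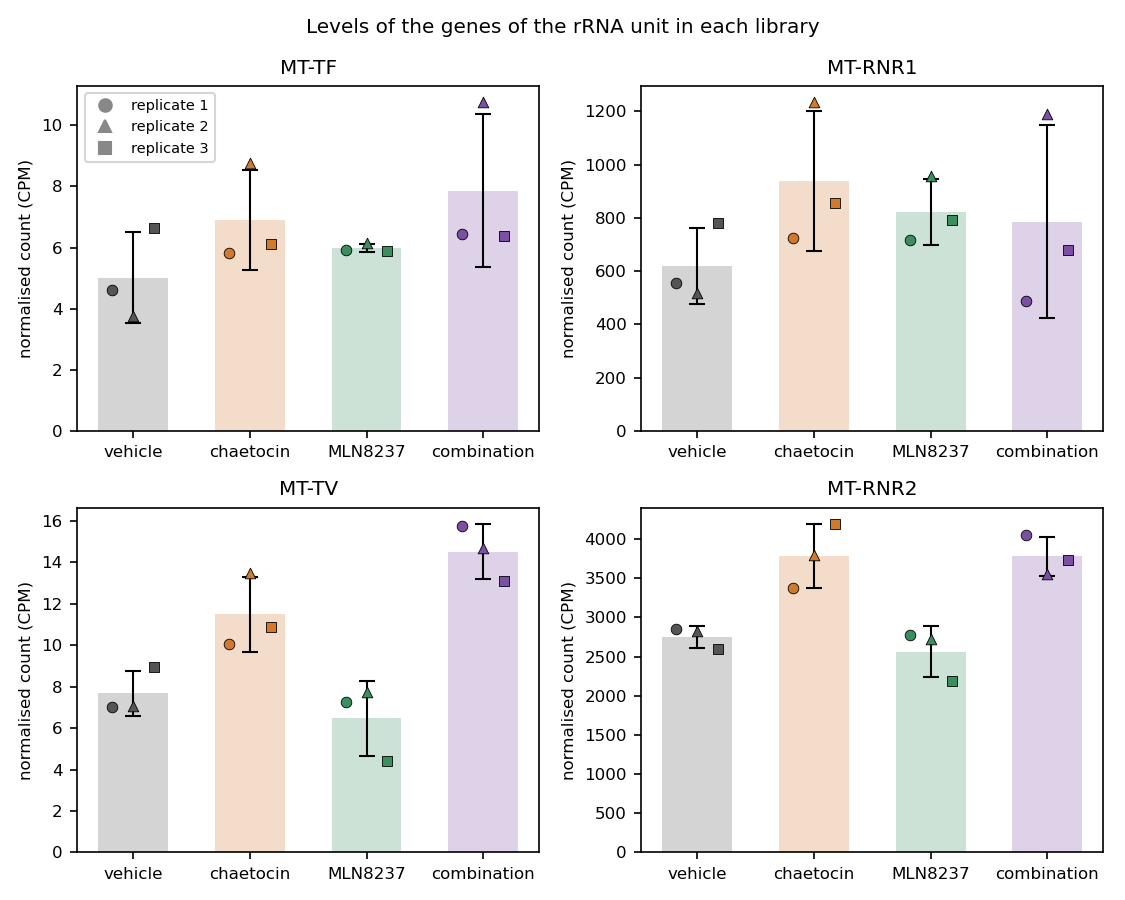
TMM-scaled CPM of MT-TF, MT-RNR1, MT-TV and MT-RNR2 in the 4 groups; bars are means, error bars SD, and each point is 1 of 3 libraries. For MT-TV and MT-RNR2 every library with chaetocin, alone or combined, is above every library without it, while MT-RNR1 and MT-TF overlap between groups.

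Among the 37 genes, 2 were called higher and 0 lower with chaetocin against vehicle, where 24.5% of all genes tested were called (12.6% higher and 11.9% lower). In the combination against vehicle 2 were called higher and 0 lower, where 38.5% of all genes were called (20.1% higher and 18.3% lower). The members' share of calls was below that of all genes in both comparisons. Their median SE was 0.25 in each, against 0.18 over all genes tested, so a change of given size was less readily called among them. The calls with chaetocin alone did not withstand the loss of a library. MT-RNR2 fell short without chaetocin replicate 3 (log2 fold change 0.38, adjusted p = 0.0526) or vehicle replicate 3 (0.42, adjusted p = 0.0529). MT-TV fell short without chaetocin replicate 2 (0.45, adjusted p = 0.176), chaetocin replicate 3 (0.62, adjusted p = 0.0729), vehicle replicate 1 (0.52, adjusted p = 0.138) or replicate 2 of vehicle (0.53, adjusted p = 0.141). The number of members called thus dropped to 0 without chaetocin replicate 3 and to 1 with chaetocin replicate 2 or any of the vehicle libraries left out. In the combination against vehicle both genes passed in all 18 alternatives that kept the threshold on p alone, with log2 fold changes from 0.41 to 0.60 for MT-RNR2 and from 0.86 to 1.06 for MT-TV. The summed epithelial markers were lower in the same chaetocin-containing groups, without overlap with vehicle, the summed immune markers reached higher there, with overlap of vehicle, and the part of such shifts in the result was not tested.

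MLN8237 alone left every mitochondria-encoded gene uncalled: edgeR called 0 of 37 against vehicle, with 0 at an unadjusted p under 0.05, and DESeq2 and limma-voom also called 0. Among all genes 0.00438% were called, that is 1 gene. MT-RNR2 had a log2 difference of -0.10 ± 0.12 (adjusted p = 0.677) and MT-TV of -0.24 ± 0.20 (adjusted p = 0.569), with intervals from -0.33 to 0.12 and from -0.63 to 0.14. The groups did not overlap for 1 gene that was higher (MT-CO2) and 2 that were lower (MT-ATP6 and MT-TL1), beside 6.96% and 7.06% of all genes.

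Adding chaetocin to MLN8237 was accompanied by the same pair. Where the combination was set against MLN8237 and 45.9% of all genes were called (23.3% higher and 22.7% lower), 2 of 37 members were called higher and 0 lower. MT-TV had a log2 fold change of 1.16 ± 0.19 (adjusted p = 0.000463), or 2.24-fold, and MT-RNR2 of 0.56 ± 0.12 (adjusted p = 0.00188), or 1.47-fold to 3 digits. This comparison shares the combination libraries with the comparison against vehicle, so the pair is not independent evidence of the same change. Both genes were called in all 17 alternatives that kept the threshold on p alone. The count of members called rose to 8 without MLN8237 replicate 1 and to 5 without MLN8237 replicate 2, where further tRNA and mRNA genes passed.

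Adding MLN8237 to chaetocin changed no member beyond the threshold. The combination against chaetocin gave 0 of 37 genes called by edgeR, DESeq2 and limma-voom, with 0 at an unadjusted p under 0.05, where 0.0% of all genes were called by edgeR. Groups did not overlap for 0 members in either direction, beside 9.54% and 9.15% of all genes. MT-TV differed by 0.34 ± 0.19 on the log2 scale (adjusted p = 0.517) and MT-RNR2 by -0.0022 (adjusted p = 0.996). The interaction, which asks whether the change with both compounds differs from the sum of the changes with each on the log2 scale, called 0 of 37 by all 3 tools, again with 0 at an unadjusted p under 0.05 and 0.0% of all genes called by edgeR. For MT-TV its value was 0.58 ± 0.27 (adjusted p = 0.369) and for MT-RNR2 0.10 (adjusted p = 0.768).

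Within the mitochondrial reads themselves, the balance between rRNA and mRNA moved with chaetocin. MT-RNR2 counts per 100 mRNA counts were 13.3, 13.4 and 11.1 in vehicle, 17.0, 17.0 and 14.3 with chaetocin, 12.7, 13.2 and 11.9 with MLN8237, and 19.4, 16.0 and 17.1 in the combination. Each of the 6 libraries with chaetocin was above all 6 without it. This ratio does not depend on library scaling, and both its parts come from mitochondrial genes. The same ratio for MT-RNR1 overlapped between all groups, at 2.46 to 3.35 in vehicle, 2.93 to 5.53 with chaetocin, 3.27 to 4.63 with MLN8237 and 2.35 to 5.35 in the combination. Together the rRNA genes took 0.325% to 0.328% of all counts in vehicle, 0.420% to 0.518% with chaetocin, 0.268% to 0.356% with MLN8237 and 0.471% to 0.497% in the combination.

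None of the 13 mRNA genes was called in any comparison, by edgeR, DESeq2 or limma-voom, and none reached an unadjusted p under 0.05. Their log2 differences against vehicle had a median of 0.13 (0.04 to 0.20) with chaetocin, -0.17 (-0.52 to 0.42) with MLN8237 and -0.01 (-0.20 to 0.12) in the combination, while the medians over all genes tested lay at 0.01, -2.8e-06 and 0.02. All 13 values were above 0 with chaetocin, but 1 of 13 was without chaetocin replicate 3, where the median was -0.03. Exceptions arose under other settings. Against MLN8237, in the combination, MT-ND2, MT-CO1 and MT-ATP6 were called with scaling by summed counts alone, and MT-ATP6 and MT-ATP8 without MLN8237 replicate 1. Against vehicle, MT-ND6 was called lower in the combination without the 3 treated libraries numbered 3. Scaling by summed counts, which moved the median of all genes in the combination against vehicle from 0.02 to 0.15, moved that of the mRNA genes from -0.01 to 0.13.

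Complex I, NADH dehydrogenase, takes 7 of these mRNAs. MT-ND1 was at 2114, 2082 and 2216 CPM in vehicle, 1991, 2245 and 2973 with chaetocin, 2156, 2075 and 1452 with MLN8237, and 2066, 2135 and 2174 in the combination. MT-ND2 was at 922, 897 and 953 CPM in vehicle, 904, 987 and 1267 with chaetocin, 957, 930.1 and 857 with MLN8237, and 937, 1056 and 1016 in the combination. MT-ND3 was at 409, 382 and 450.4 CPM in vehicle, 359.5, 435 and 629 with chaetocin, 411, 424 and 826 with MLN8237, and 383, 439.8 and 481 in the combination. For these core subunits of the membrane arm, all groups overlapped vehicle, and MLN8237 replicate 3 was the lowest library for MT-ND1 and MT-ND2 and the highest for MT-ND3. MT-ND4 was at 5650, 5529 and 5961 CPM in vehicle, 5297, 5910 and 7527 with chaetocin, 5861, 5536 and 3884 with MLN8237, and 5248, 5708 and 5543 in the combination. MT-ND4L, on the same mRNA, was at 1085, 1191 and 1211 CPM in vehicle, 1138, 1175 and 1271 with chaetocin, 1111, 1013 and 304 with MLN8237, and 1199, 1247 and 998 in the combination. MT-ND4L stood far lower in MLN8237 replicate 3 than in any other library, and MT-ND4 was lowest in that library too. MT-ND5, the subunit at the far end of the membrane arm, was at 1652, 1742 and 2249 CPM in vehicle, 1601, 1813 and 2428 with chaetocin, 1712, 1533 and 1397 with MLN8237, and 1723, 1767 and 1835 in the combination. MT-ND6, the only mRNA gene on the minus strand, was at 711, 692 and 876 CPM in vehicle, 608, 718 and 1109 with chaetocin, 712, 666 and 1095 with MLN8237, and 580.0, 617 and 782 in the combination. The combination differed from vehicle by -0.05 for MT-ND4 on the log2 scale, with an interval of -0.36 to 0.25.

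Complex III takes MT-CYB, cytochrome b, which was at 2373, 2195 and 2466 CPM in vehicle, 2013, 2244 and 3121 with chaetocin, 2420, 2245 and 1928 with MLN8237, and 2189, 2421 and 2328 in the combination. Complex IV, cytochrome c oxidase, takes 3 mRNAs for its catalytic core. MT-CO1 was at 1847, 1855 and 2076 CPM in vehicle, 1748, 1988 and 2604 with chaetocin, 1895, 1740 and 1356 with MLN8237, and 1977, 1970 and 1992 in the combination. MT-CO2 was at 1365, 1297 and 1373 CPM in vehicle, 1166, 1495 and 1933 with chaetocin, 1418, 1437 and 2251 with MLN8237, and 1256, 1410 and 1400 in the combination. MT-CO3 was at 1587, 1467 and 1748 CPM in vehicle, 1374, 1568 and 2315 with chaetocin, 1606, 1609 and 2183 with MLN8237, and 1421, 1603 and 1741 in the combination. Replicate 3 was the highest library of its group for MT-CO3 in all 4 groups, and for MT-CO2 in all but the combination. ATP synthase takes MT-ATP6 and MT-ATP8, both in its membrane part. MT-ATP6 was at 1113, 1106 and 1191 CPM in vehicle, 1089, 1143 and 1419 with chaetocin, 1088, 997 and 569 with MLN8237, and 1185, 1223 and 1063 in the combination. MT-ATP8 was at 574, 611 and 567 CPM in vehicle, 580.5, 577 and 716 with chaetocin, 585, 491 and 216 with MLN8237, and 652, 669 and 538 in the combination. With MLN8237, MT-ATP6 lay below the vehicle libraries in all 3 libraries, by a log2 difference of -0.36, and MT-ATP8 differed by -0.44, both mostly through replicate 3.

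The 22 tRNA genes had a median log2 difference against vehicle of 0.11 (-0.23 to 0.58) with chaetocin, 0.34 (-0.37 to 0.81) with MLN8237 and 0.03 (-0.36 to 0.92) in the combination. These medians turned with replicate 3: they were -0.19 without chaetocin replicate 3, -0.08 without MLN8237 replicate 3 and -0.13 without combination replicate 3. MT-TV was the only one called. MT-TL1, which follows MT-RNR2 directly, was at 126, 123 and 130.4 CPM in vehicle, 112, 123 and 147 with chaetocin, 123, 114 and 57.7 with MLN8237, and 136, 132 and 121 in the combination. MT-TY was at 104, 107 and 102 CPM in vehicle, 92.1, 99.96 and 107 with chaetocin, 105, 102 and 62.6 with MLN8237, and 95.2, 102 and 79.5 in the combination. MT-TC, which shares a base with it, was at 75.3, 77.6 and 71.2 CPM in vehicle, 64.3, 69.4 and 78.5 with chaetocin, 71.7, 77.4 and 53.8 with MLN8237, and 65.1, 71.2 and 58.4 in the combination. These last genes lie side by side on the minus strand, between MT-ND2 and MT-CO1. MT-TE, next to MT-ND6 on that strand, was at 51.2, 46.8 and 61.8 CPM in vehicle, 38.8, 52.8 and 79.2 with chaetocin, 49.1, 51.2 and 129.6 with MLN8237, and 38.2, 40.9 and 57.2 in the combination. Of these 4, MT-TL1, MT-TY and MT-TC were lowest and MT-TE highest in MLN8237 replicate 3. MT-TC lay lower in all combination libraries than in all vehicle libraries without being called. MT-TP (proline), named after its values were seen, had a log2 difference of -0.36 ± 0.17 (adjusted p = 0.113) in the combination against vehicle and of -0.44 ± 0.17 (adjusted p = 0.0506) against MLN8237. It was called lower in 3 of 18 alternatives of the former and in 7 of 17 of the latter. Groups did not overlap for 4 members that were higher and 3 that were lower in the combination against vehicle, beside 27.5% and 27.4% of all genes, and for 2 and 0 with chaetocin, beside 24.2% and 23.9%.

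**Figure D3:**
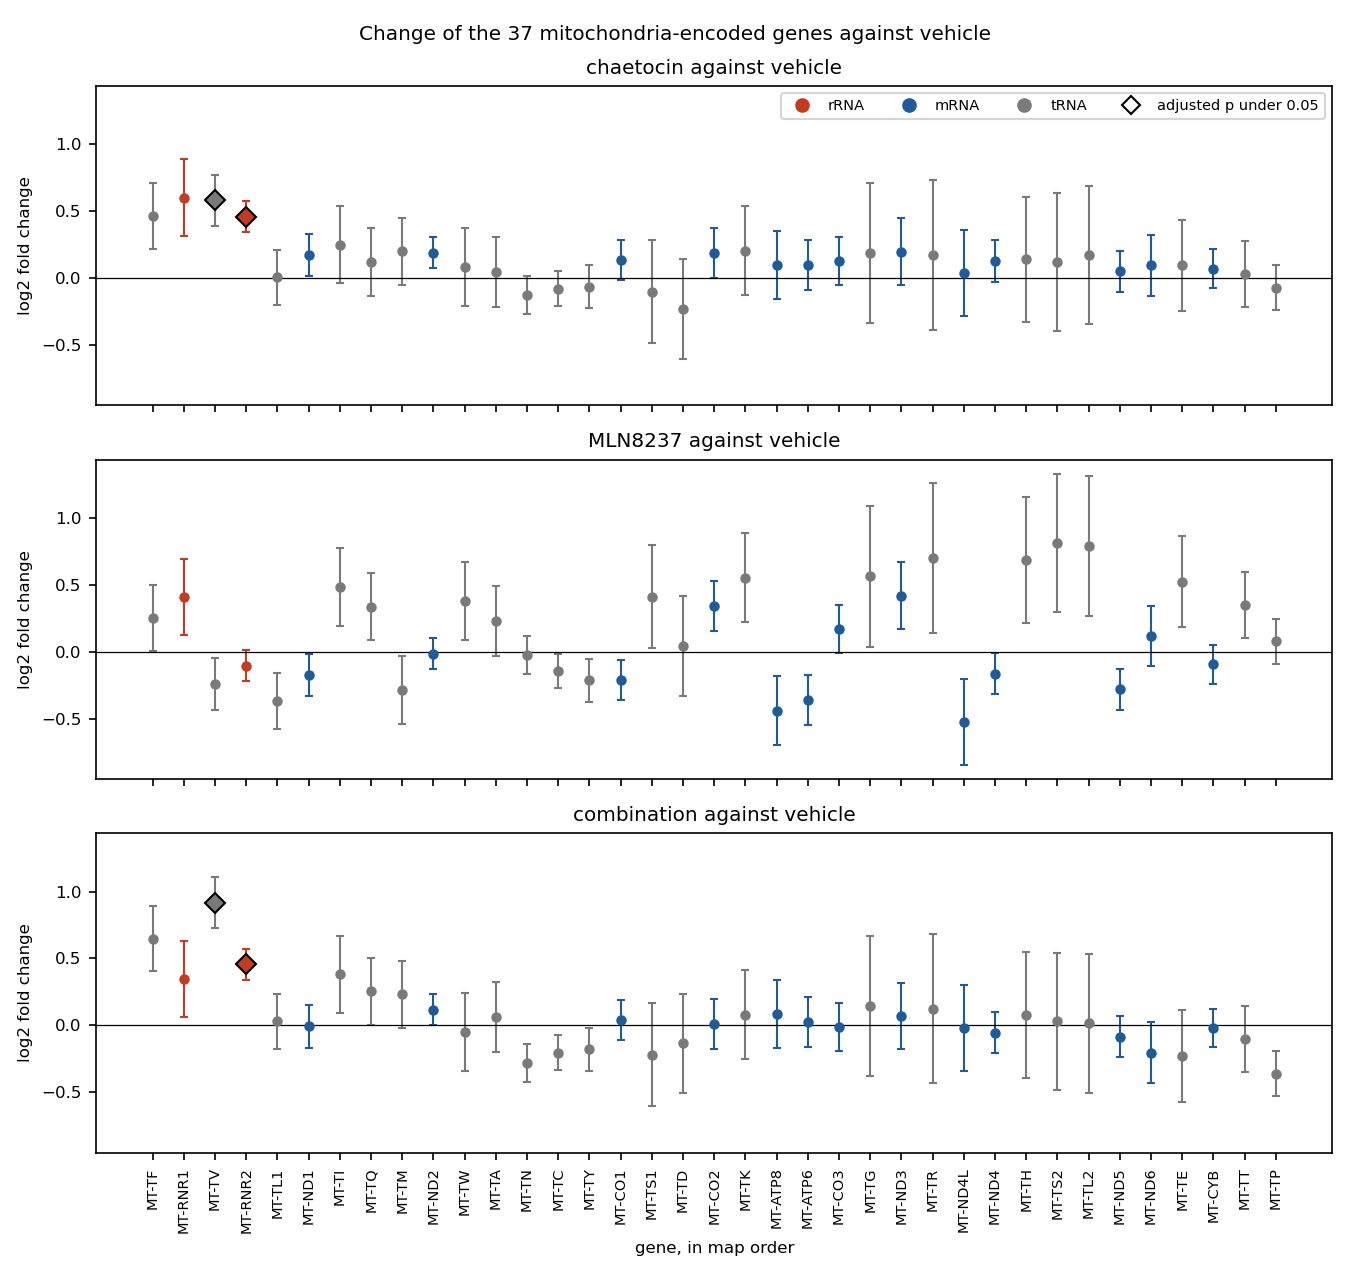
Fitted log2 fold change against vehicle of the 37 genes in map order, for chaetocin, MLN8237 and the combination; points are estimates, bars are SE, and diamonds mark adjusted p under 0.05. The only diamonds are MT-TV and MT-RNR2 with chaetocin (0.58 and 0.46) and in the combination (0.92 and 0.46).

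Part of the spread among replicates followed the replicate number. Of the 37 genes, 17 were higher in replicate 3 than the mean of the other libraries of the group in all 4 groups, 13 of them tRNA genes and 4 mRNA genes (MT-CO2, MT-CO3, MT-ND3 and MT-ND6), and 0 were lower in all 4. MT-TG (glycine) and MT-TR (arginine), named after their values were seen, were over 1.5-fold higher there in all 4 groups. MT-TG was at 17.4, 15.9 and 32.9 CPM in vehicle, 15, 18.7 and 41.9 with chaetocin, 16.9, 16.9 and 64.2 with MLN8237, and 17.4, 21.9 and 33.8 in the combination. MT-TR was at 13.96, 14.4 and 27.8 CPM in vehicle, 11.7, 16.4 and 35.3 with chaetocin, 14.4, 14.6 and 62.5 with MLN8237, and 14.6, 17.5 and 29.2 in the combination. Both genes flank MT-ND3, which itself was 1 of the 17. The shift was widest with MLN8237, where log2 differences of replicate 3 from the mean of the others ran from -1.80 for MT-ND4L to 2.19 for MT-TS2 (serine). The fall of MT-ND4L did not follow the number, with 0.09 in vehicle, 0.14 with chaetocin and -0.29 in the combination. In chaetocin replicate 3, 15 genes were over 1.5-fold higher and 0 lower, against 6 and 0 in vehicle replicate 3 and 3 and 0 in combination replicate 3. Over all genes tested, 6.70%, 7.10% and 8.12% were over 1.5-fold higher in these libraries in the same order. How many of all genes tested were higher in replicate 3 in all 4 groups was not counted. What the number 3 stands for is not given in the labels. Without the 3 treated libraries of that number, 8 members were called in the combination against vehicle and 5 against MLN8237, in place of 2 and 2. Without MLN8237 replicate 3 alone, MT-RNR2 and MT-TV were called in both of these comparisons.

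**Figure D4:**
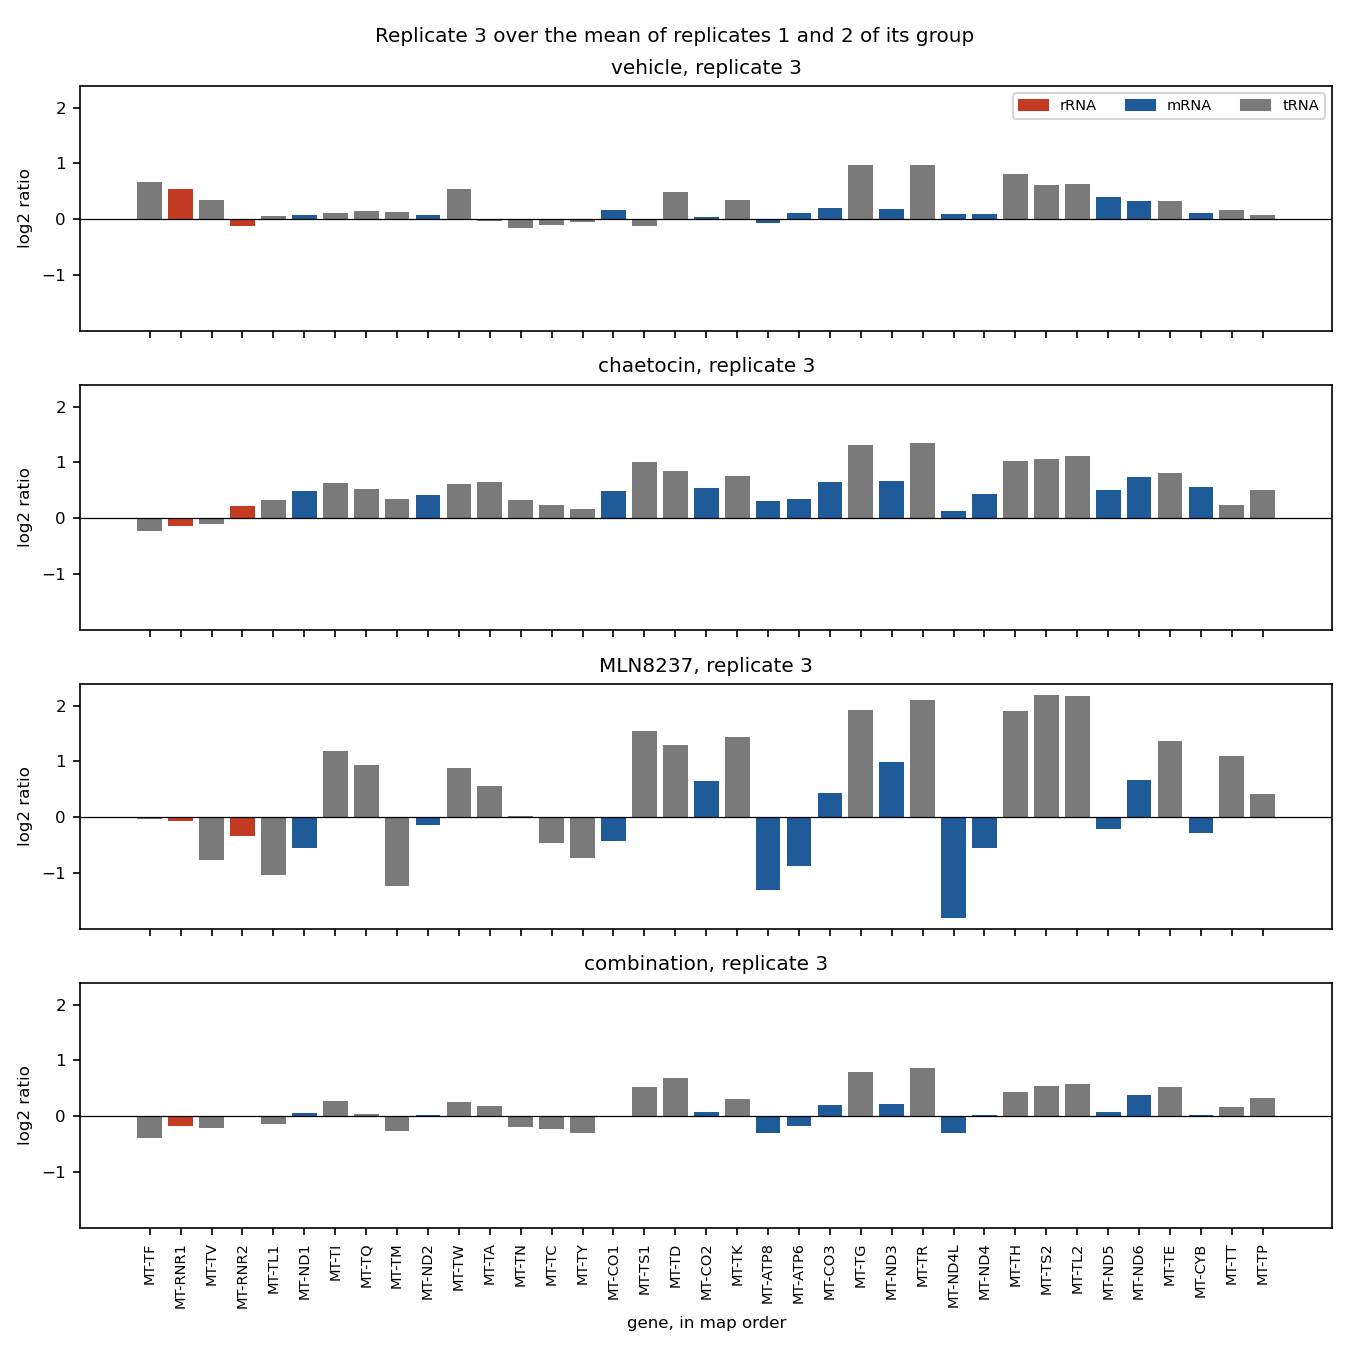
Log2 ratio of replicate 3 to the mean of replicates 1 and 2 for the 37 genes in each of the 4 groups, from TMM-scaled CPM. In MLN8237 the ratio runs from -1.80 (MT-ND4L) to 2.19 (MT-TS2), and MT-TG and MT-TR are above 1.5-fold in all 4 groups.

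Copies of mitochondrial DNA in the nuclear genome carry nearly the same bases, and reads of the mitochondrial genes can be counted to them. By gene name the table held 188 such copies, of which 87 had a count and 18 were tested, and the copies took 0.457% to 0.878% of all counts. The 4 with the highest mean level were MTATP6P1 (ENSG00000248527, chr1:569076-569756), MTND2P28 (chr1:565020-566063), MTND4P12 (chr5:134262350-134263726) and MTND1P23 (chr1:564442-564813). MTATP6P1 is 98.5% identical to MT-ATP6 over 681 bases, with 10 differing bases, of which the stretch of bases 116 to 175 of each gene shows 3 in capitals.
MT-ATP6: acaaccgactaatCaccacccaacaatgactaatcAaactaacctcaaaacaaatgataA
MTATP6P1: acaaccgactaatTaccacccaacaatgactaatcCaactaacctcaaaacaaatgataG
MTATP6P1 held 157 to 248 counts per 100 of MT-ATP6 across the libraries, and MTND2P28, 98.4% identical, 160 to 207 per 100 of MT-ND2. MTND4P12 (95.7% identical) held 17.5 to 20.9 per 100 of MT-ND4 and MTND1P23 (96.8% over 372 bases) 28.0 to 75.7 per 100 of MT-ND1. Levels of MT-ATP6 and MT-ND2 given here are therefore the reads the authors' counting assigned to them, and the sum with the copy is larger. None of these 4 copies was called in any comparison.

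Of 17 tested copies on the list, 4 were called higher and 0 lower with chaetocin, in the combination against vehicle and in the combination against MLN8237, and all 4 derive from MT-RNR2: MTRNR2L1, MTRNR2L2, MTRNR2L8 and MTRNR2L9. Over all genes, 12.6%, 20.1% and 23.3% were called higher in these comparisons. With chaetocin the 4 became 1 without chaetocin replicate 3, vehicle replicate 2 or vehicle replicate 3 and 2 without chaetocin replicate 2 or vehicle replicate 1, and in the combination against vehicle 2 without combination replicate 1 or vehicle replicate 3. Their log2 fold changes with chaetocin were 0.48 (adjusted p = 0.0154), 0.38 (adjusted p = 0.0497), 0.45 (adjusted p = 0.0302) and 0.48 (adjusted p = 0.00381). MTRNR2L12, outside the list and named after its values were seen, held 6.57 to 7.32 counts per 100 of MT-RNR2 and had log2 fold changes of 0.43 (adjusted p = 0.0184) with chaetocin and 0.46 (adjusted p = 0.00837) in the combination. These genes share sequence with MT-RNR2, so they are not independent evidence of its rise. The stretch aligned was long for MTRNR2L1 (1553 bases, 88.3% identical) and MTRNR2L8 (1303 bases, 93.0%). It was short for MTRNR2L2 (87 bases, 81.6%) and MTRNR2L9 (75 bases, 90.7%). With each gene's copies added to it, the same members were called in every comparison.

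Proteins encoded in the nucleus transcribe, cut, modify and translate the mitochondrial RNAs, and the following lists give their transcripts in the same fits. Among all genes tested, 12.6% were called higher and 11.9% lower with chaetocin (24.5% in all), and 20.1% higher and 18.3% lower in the combination against vehicle (38.5% in all). A list whose calls come near these shares gives no result about the list. Of 16 tested genes for mtDNA transcription, 2 rose and 2 fell with chaetocin (median log2 difference 0.07) and 3 rose and 4 fell in the combination against vehicle (0.02), which in all is near the share of all genes. TFB2M, the transcription initiation factor, rose from 30.5 to 40.2 CPM with chaetocin (log2 fold change 0.40 ± 0.093, adjusted p = 0.00774) and to 40.1 CPM in the combination (0.39, adjusted p = 0.00485). TFB1M, which methylates the small-subunit rRNA, fell from 24.4 to 18.7 CPM with chaetocin (-0.39, adjusted p = 0.0100) and to 18.1 CPM in the combination (-0.43, adjusted p = 0.00297). PPARGC1B, a coactivator of nuclear genes for mitochondria, fell by 0.88 with chaetocin (adjusted p = 0.0111) and by 1.39 in the combination (adjusted p = 0.000402) on the log2 scale. The elongation factor TEFM fell by 0.52 in the combination (adjusted p = 0.00249), and MTERF, a terminator protein known to bind within MT-TL1, was higher by 0.47 (adjusted p = 0.00463). The polymerase POLRMT and the packaging factor TFAM, named after their values were seen, were not called, with log2 differences of -0.07 (adjusted p = 0.609) and 0.12 (adjusted p = 0.285) with chaetocin.

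Of 21 genes for mtDNA replication and nucleoids, 3 rose and 1 fell with chaetocin (median 0.11) and 5 rose and 2 fell in the combination (0.11), in all at or below the share of all genes. PRIMPOL, a primase and polymerase, rose from 19.8 to 27.2 CPM with chaetocin (0.46, adjusted p = 0.00207) and to 29.3 CPM in the combination (0.57, adjusted p = 0.000263). RNASEH1, which removes RNA paired with DNA, rose by 0.44 and 0.49 on the log2 scale, and TYMP, thymidine phosphorylase, by 0.88 and 1.07. SUCLA2, a succinyl-CoA ligase subunit needed to keep mtDNA, fell by 0.39 and 0.50. Leaving out any single library moved each of these counts for transcription and replication genes by at most 1.

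Among genes that handle mitochondrial RNA, more of those called fell than rose. Of 26 processing, stability and decay genes, 1 rose and 2 fell with chaetocin (median -0.11), and 2 rose and 9 fell in the combination (-0.17), where 11.9% and 18.3% of all genes fell. In this list KIAA0391 was counted under both of its gene entries. The 2 falls with chaetocin became 3 without chaetocin replicate 1 and 1 with any other library left out. ELAC2, the nuclease that cuts the 3′ ends of tRNAs, fell from 121.8 to 98.8 CPM with chaetocin (-0.30, adjusted p = 0.0116) and to 87.3 CPM in the combination (-0.48, adjusted p = 0.000365), and the helicase DHX30 fell by 0.31 and 0.42. FASTKD3 rose by 0.35 with chaetocin. Of 26 genes that modify mitochondrial rRNA or tRNA or assemble the ribosome, 0 rose and 5 fell with chaetocin (median -0.11) and 0 rose and 11 fell in the combination (-0.22). Counted in both directions, the calls of either list were below the share of all genes with chaetocin and near it in the combination. That more fell than rose was not itself tested. GTPBP3, which modifies the wobble base of tRNAs, fell from 24.1 to 14.03 CPM with chaetocin (-0.78, adjusted p = 0.00100) and to 8.75 CPM in the combination (-1.46, adjusted p = 7.73e-06). NSUN4, an rRNA methyltransferase, fell by 0.34 with chaetocin (adjusted p = 0.0257). With the loss of a library the processing genes that fell in the combination numbered 4 without combination replicate 1 or any vehicle library, 5 without combination replicate 3 and 9 without combination replicate 2. The modification genes that fell with chaetocin numbered 1 to 3 without any of the 6 libraries, and those that fell in the combination 7 without combination replicate 1 or vehicle replicate 1.

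Calls among the protein partners of the mitochondria-encoded products were mostly falls. Of 78 mitochondrial ribosomal protein genes, 1 rose and 9 fell with chaetocin (median -0.06), 1 rose and 27 fell in the combination against vehicle (-0.24), and 0 rose and 48 fell against MLN8237 (-0.45). In this list MRPL30 and MRPS17 were each counted under both of their gene entries. Among all genes 11.9%, 18.3% and 22.7% fell, so the count with chaetocin was at the share of all genes. Counted in both directions, the calls against vehicle were below the share of all genes with chaetocin and near it in the combination. MRPS5 of the small subunit fell from 106.5 to 80.7 CPM with chaetocin and to 69.0 CPM in the combination, and MRPL1 of the large subunit fell by 1.11 on the log2 scale in the combination (adjusted p = 0.000236). MRPL18 went the other way with chaetocin, from 81.2 to 110 CPM (0.44, adjusted p = 0.0132). The 9 calls with chaetocin dropped to 0 without chaetocin replicate 2 or vehicle replicate 1 and to 3 without any of the other 4 libraries, and the 27 in the combination to 16 without combination replicate 1 and 17 without vehicle replicate 1.

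Of 84 tested nuclear genes for subunits of complexes I to V, 0 rose and 17 fell with chaetocin (median -0.24), 0 rose and 36 fell in the combination (-0.42), and 0 rose and 80 fell against MLN8237 (-0.82), beside the same shares of all genes. Counted in both directions, here too the calls against vehicle were below the share of all genes with chaetocin and near it in the combination. Of the 40 complex I genes 6 fell with chaetocin and 17 in the combination, among them NDUFA5, from 52.1 to 32.3 and 26.2 CPM, and NDUFS1, from 195 to 145 and 128 CPM. Of 5 complex II entries, which count SDHD under both of its gene entries, 2 and 3 fell, and of 10 complex III genes 3 and 4. NDUFA7 and NDUFB8 of complex I and UQCR11 of complex III were likewise each counted under both of their gene entries. CYC1, cytochrome c1, was at 251 CPM in vehicle, 165 with chaetocin (-0.61 ± 0.11, adjusted p = 0.00181) and 127 in the combination (-0.99 ± 0.11, adjusted p = 3.67e-05). Of the 12 complex IV genes 0 fell with chaetocin, with 0 at an unadjusted p under 0.05, and 2 in the combination, COX7B (-0.56, adjusted p = 0.0170) and NDUFA4 (-0.36). DESeq2 and limma-voom also called 0 with chaetocin, but 6 of the 12 fell with chaetocin and 12 in the combination without the 3 treated libraries numbered 3. The 2 in the combination became 0 without combination replicate 1 or vehicle replicate 1 and 1 without combination replicate 3 or vehicle replicate 2. Of 18 genes listed for ATP synthase 6 and 11 fell. ATP5A1, its alpha subunit, went from 325 CPM in vehicle to 212 and 179, and ATP5B, its beta subunit, from 1190 to 886 and 763. Beside these, the mRNA genes MT-ATP6 and MT-ATP8 of the same complex differed by 0.10 and 0.10 with chaetocin and by 0.03 and 0.09 in the combination, and MT-CYB of complex III by 0.07 and -0.02, none of them called. The difference between nuclear and mitochondrial subunits was itself not tested.

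The count of 17 depended on the libraries: losing chaetocin replicate 1 or 2 left 11, losing vehicle replicate 1 left 9 and vehicle replicate 2 left 10, losing replicate 3 of either group left 12, and it was 54 without the 3 treated libraries numbered 3. The count of 36 was 22 without combination replicate 1, 23 without vehicle replicate 1 and 78 without the treated libraries numbered 3. Without those same libraries the count of 80 against MLN8237 was 81, and its median was -0.58 in place of -0.82. In MLN8237 against vehicle, edgeR, DESeq2 and limma-voom called 0 genes of every one of these lists, with 38 of the 84 subunit genes and 22 of the 78 ribosomal protein genes at an unadjusted p under 0.05. The median of the subunit genes there was 0.37, and 0.09 without the treated libraries numbered 3.

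Of 20 genes of the mitochondrial stress response, 2 rose and 3 fell with chaetocin and 1 rose and 5 fell in the combination, in all near or below the share of all genes. Losing a library left 1 to 3 rising and 0 to 2 falling with chaetocin, with 0 falling without chaetocin replicate 2 or vehicle replicate 3. In the combination it left 1 to 2 rising, with 2 without combination replicate 2, and 3 to 5 falling, with 3 without combination replicate 1 or vehicle replicate 3. GDF15, a secreted stress cytokine, rose from 50.1 to 85.4 CPM with chaetocin (0.77, adjusted p = 0.000943) and to 73.0 CPM in the combination (0.54, adjusted p = 0.00453), while the transcription factor ATF5 fell by 0.71 in the combination (adjusted p = 0.000956) and the mitochondrial superoxide dismutase SOD2 fell by 0.32 and 0.31.

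**Figure D5:**
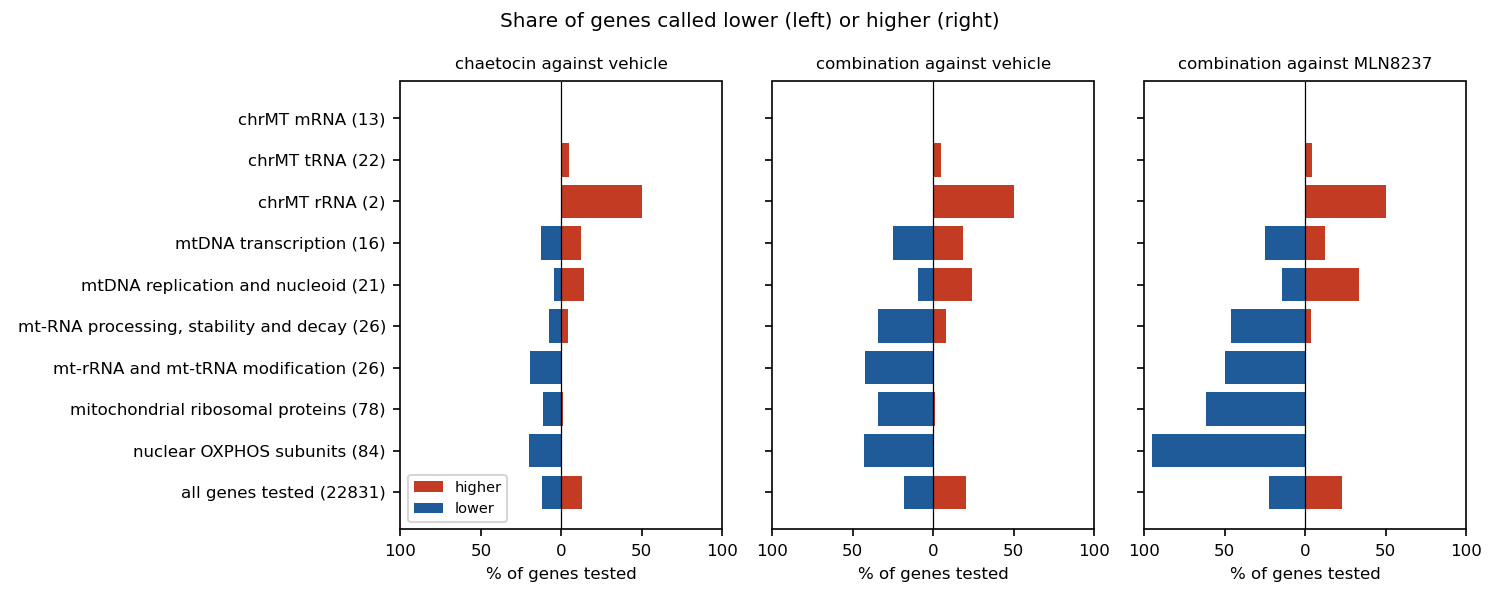
Percent of tested genes called higher or lower at adjusted p under 0.05 for the mitochondria-encoded classes, 6 lists of nuclear genes and all genes tested, in chaetocin and the combination against vehicle and the combination against MLN8237. Of the 13 mitochondria-encoded mRNA genes 0 are called in each, while of 84 nuclear subunit genes 17, 36 and 80 are called lower.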

How the data were processed

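RNA of PANC-1 cells was sequenced in 12 libraries, 3 in each of 4 groups, grouped by the treatment in their labels. The authors deposited raw counts and RPKM values per gene and library, per the file headers, together with gene positions and a gene length. RPKM values were used as deposited for levels per length and to recover the library total they were scaled to. Per the submitters' processing notes CASAVA 1.9, TopHat 12.0.6, HTSeq and the build hg19 were used, without roles or order. RNA was extracted with an on-column DNA digestion, per the labels' protocols. The counting mode, use of strand, treatment of reads with several matches and poly(A) selection are not given in the sources used here. Reads of overlapping genes, of both strands and of nuclear copies therefore cannot be told apart with certainty.

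The deposited counts entered edgeR 4.0.16 (R 4.3.3) unchanged: filtering by group, TMM scaling, 4 group means over 12 libraries, the robust quasi-likelihood F test and Benjamini-Hochberg adjustment over all 22831 genes tested, with calls at an adjusted p under 0.05. Of the 57773 genes, 16155 had no count. Biological variation, as edgeR's common coefficient, was 0.155. The 6 comparisons set every treatment against vehicle and the combination against either compound, with the interaction as the last. SE is the fit's log2 fold change divided by the root of F, and intervals are ± 1.96 SE. The fit was tested on simulated data. Alternatives were DESeq2 1.42.0, limma-voom (limma 3.58.1), other scalings and filters, a fold threshold, the groups compared alone, a replicate block, and leaving out libraries. Alternatives added after seeing the data were summing nuclear copies into their parent gene, leaving out MLN8237 replicate 3 throughout, and the settings for the nuclear lists. Figures were drawn with Python 3.11.15 and matplotlib 3.10.9.

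All 37 genes are accounted for. Values in every library are given for the rRNA and mRNA genes, any tRNA gene called and the 4 tRNA genes with the highest mean CPM. Of each nuclear list, genes were named among up to 4 called with the smallest p per comparison, and of nuclear copies the 4 with the highest mean CPM. The members and lists were chosen with earlier results of these data known. 1 of the immune markers listed for the check of cell types is not reported here.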

Additional observations from a re-analysis of the deposited data

How the results depend on the processing

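Of 4292 values of single mitochondria-encoded genes recomputed under alternatives, 4238 kept their side of the threshold, 11 lost it, 43 gained it and 0 changed sign while called, and 385 that were uncalled both ways had the other sign. Counts of members called moved as follows. Asking also for an absolute log2 fold change of at least 1 left 0 with chaetocin against vehicle, 0 in the combination against vehicle and 1 in the combination against MLN8237, with 1989, 3406 and 3846 genes called in all. Against vehicle 5 were called in the combination with only the groups compared and 8 without the 3 treated libraries numbered 3. Against MLN8237 it was 5 with summed counts alone and 5 without those libraries. Over all genes, MLN8237 against vehicle gave 0 with a stricter filter and 0 with only the groups compared, the combination against chaetocin 36 without a filter, 299 by DESeq2 and 1 by limma-voom, and the interaction 2 without a filter and 15 by DESeq2.

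Leaving out each library in turn gave 0 to 2 members called with chaetocin, 0 to 0 with MLN8237, 2 to 3 in the combination against vehicle, 0 to 0 against chaetocin, 2 to 8 against MLN8237 and 0 to 0 for the interaction. Over all genes the ranges were 3679 to 7462, 0 to 1, 6562 to 10742, 0 to 580, 7609 to 10326 and 0 to 0 in the same order. The 7462 and 10742 came without MLN8237 replicate 3 in every comparison, which gave 10 in the combination against chaetocin, where the 580 came without combination replicate 2. The other omissions gave at most 4639 with chaetocin. The mitochondrial share of counts stayed within 2.44% to 2.55% in vehicle, 2.69% to 3.20% with chaetocin, 2.20% to 2.47% with MLN8237 and 2.85% to 2.87% in the combination. MT-RNR2 per 100 mRNA counts stayed within 12.2 to 13.4, 15.6 to 17.0, 12.3 to 12.9 and 16.5 to 18.3. Taking the mRNA genes alone, over counts without mitochondrial rRNA and tRNA genes, gave shares of 2.13%, 2.44%, 1.94% and 2.32% in the same order, lower by construction, and the RPKM total as denominator gave 2.74% for the combination.

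Groups share replicate numbers, and the deviations of same-numbered libraries correlated over all genes at -0.153 to 0.462, not all above 0.1. Among the treated libraries numbered 3 they were 0.462, 0.436 and 0.441, above every pair of different number, of which the highest was 0.267. Vehicle replicate 3 correlated with these libraries at 0.075 to 0.137. Over the 37 mitochondria-encoded genes alone the correlations of same-numbered libraries ran from 0.066 to 0.914. Pairs of different number ran from -0.887 to 0.858 over these genes, the highest being chaetocin replicate 1 with MLN8237 replicate 2. The 2 ranges thus overlapped. Among libraries numbered 3 the correlations ran from 0.476 to 0.914. With the number as a replicate block, 4 members were called in the combination against vehicle and 5 against MLN8237. The block also moved the stress response genes that rose from 2 to 5 with chaetocin and from 1 to 5 in the combination, and the complex IV genes that fell in the combination from 2 to 5. Nuclear subunit genes of complexes I to V that fell in the combination against vehicle went from 36 to 50 with the block. Mitochondrial ribosomal protein genes that fell there went from 27 to 31. The cause of these shifts was not tested.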
